A study of Mus musculus with 22 samples.

Results

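A diet deficient in methionine and choline (MCD) was compared with normal diet in mouse liver, using the 8 vehicle-treated libraries of the MCD cohort among the 22 libraries of the series. The members were every library that the labels place in the MCD vehicle group or the normal-diet vehicle group of that cohort, 4 of each, and all 45777 genes of its count table. All mice were male wild-type C57BL/6J, and RNA was read from whole liver after polyA selection with a strand-specific kit. The labels give the disease state of the MCD livers as MASH, metabolic dysfunction-associated steatohepatitis, and that of the normal-diet livers as normal. The 3 other libraries of the cohort came from MCD-fed mice given DTMB, a compound known here by that name only, at 10 mg/kg per day by mouth. They were not compared here and served only to estimate the spread between replicates. The labels call the replicates biological, and p-values measure the spread between these libraries. The sources used here do not give the make-up of the normal diet, the time on diet, the age of the mice, the vehicle, the hour of sampling or whether a library pools animals.

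Methionine is the source of S-adenosylmethionine, the methyl donor of the cell, and choline is the head group of phosphatidylcholine. The liver makes phosphatidylcholine from choline, by way of CDP-choline, and by methylating phosphatidylethanolamine with the enzyme PEMT, so that a diet short of both nutrients limits both routes. Phosphatidylcholine coats very low density lipoprotein (VLDL), the particle in which the liver exports triglyceride. The MCD diet is used as a model of steatohepatitis because mice on it accumulate liver fat and develop inflammation, while they lose weight and do not become insulin resistant as obese mice do.

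The libraries held 62.33 to 66.73 M counts in MCD livers and 55.1 to 61.5 M counts in normal-diet livers, and 16037 genes passed the filter on low counts. Levels are given as CPM, a gene's counts relative to the size of its library after scaling with TMM factors. Those factors were 1.0295 to 1.2109 in MCD livers and 0.7847 to 0.8941 in normal-diet livers, a difference that moves every gene. Scaling by library size alone raised the median log2 fold change of all genes tested by 0.47, so changes are reported here relative to the typical gene. A fall smaller than that shift can turn its sign with the scaling. The calls of small rises and of some larger falls also depend on it. Among the latter, the fall of Ccl9 (-1.07) was not called by library size alone. Libraries of the same diet correlated at 0.9778 to 0.9919 across genes and libraries of different diets at 0.9222 to 0.9556. The first principal component, with 70% of the variance, separated the diets. Defining hepatocyte markers were abundant in all 8 libraries, at 93500 to 135000 CPM in sum in MCD livers and 108000 to 145000 CPM in normal-diet livers. Xist had no count in MCD livers and at most 4 counts in a normal-diet liver, with Y-linked Ddx3y at 2339 to 3521 counts in MCD livers and 1916 to 2563 counts in normal-diet livers, as the labelled sex would give. In whole-liver RNA, fewer cells of a type and less RNA per cell cannot be told apart.

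Of the genes tested, 6626 (41.3%) differed at an adjusted p under 0.05 by edgeR's quasi-likelihood test, which is the meaning of rose, fell and called in what follows. There were 3253 genes that rose (20.3%) and 3373 that fell (21%), and these shares are the background for every list of genes below. With a log2 fold change of at least 1 as well, 1910 genes rose (11.9%) and 1144 fell (7.13%). Scaled by library size alone, 7683 genes rose and 1170 fell, so the balance of rises and falls depends on the scaling. The libraries of the diets did not overlap for 2854 genes that were higher in MCD livers (17.8%) and 3190 that were lower (19.9%).

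The gene of smallest p was Cd36, the fatty acid translocase of the cell surface (GRCm38, chr5:17781690-17888959). It had 405, 528, 441 and 516 CPM in MCD livers, against 37.4, 41.8, 38.9 and 40.2 CPM in normal-diet livers. The diets were far apart at this gene and each was tight, for a log2 fold change of 3.58 ± 0.13 (SE, adjusted p = 7.52e-08). Next in order of p came the estrogen sulfotransferase Sult1e1, the major urinary protein Mup3, the carboxylesterase Ces3b and Zcchc24, which encodes a zinc finger protein. Zcchc24 averaged 14 ± 0.59 CPM in MCD livers and 109 ± 16 CPM in normal-diet livers (SD, n = 4 each). Rap1gap2, an activator of Rap GTPase activity, averaged 13.3 ± 3.04 CPM in MCD livers and 0.306 ± 0.11 CPM in normal-diet livers. Scnn1a, the alpha subunit of the epithelial sodium channel, averaged 1.15 ± 0.328 CPM in MCD livers and 22.4 ± 3.36 CPM in normal-diet livers. The other genes among the 10 of smallest p were the terminal complement component C6, the calcium-binding S100g, which overlaps Ctps2, and the erythroid heme enzyme Alas2, which overlaps Apex2.

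Most of the largest rises and falls were genes that were close to silent on one diet. Vmn2r3, annotated as a vomeronasal receptor, had 66.1, 29.1, 49.4 and 31.5 CPM in MCD livers and no count in any normal-diet liver. Against a limit of 3 counts summed over the normal-diet livers, which covers counting error only, it was at least 2919-fold higher in MCD livers. Against the same limit the sulfotransferase Sult2a3 was at least 721.1-fold higher, the cytochrome Cyp2b13 at least 546.7-fold and the keratin Krt20 at least 278.6-fold. Without MCD replicate 4 the bound of Cyp2b13 was 341.1-fold, and without MCD replicate 2 that of Krt20, which had 1.59, 12.2, 2.05 and 0.733 CPM in MCD livers, was 98.26-fold. Of the other rises among the 12 largest, Selenok-ps2, a pseudogene, Tmprss7, a serine protease gene, Acot5, a peroxisomal acyl-CoA thioesterase, and Adm2, a peptide hormone of the adrenomedullin family, were also at 0 in all normal-diet livers. Among falls, Mup5 had no count in MCD livers, against 2.16, 29.5, 48.3 and 51.1 CPM in normal-diet livers, at least 3120-fold lower against the same limit in MCD livers. Its call was lost with limma-voom (adjusted p = 0.0875). Serpina4-ps1, a pseudogene with 7.6, 5.57, 7.86 and 35.8 CPM in normal-diet livers, was at least 1352-fold lower in MCD livers (666.7-fold without normal diet replicate 4), Trhde, which encodes the enzyme that degrades thyrotropin-releasing hormone, at least 210.4-fold, Grm8, a glutamate receptor gene, at least 139.9-fold, and Serpina9 at least 136.9-fold. The remaining falls among the 12 were the steroid dehydrogenases Hsd3b5 and Hsd3b4, Mup-ps21, the organic anion transporter Slco1a1, Mup7, Cyp2c54 and Lrit2. Of these, Mup7 still averaged 159 CPM in MCD livers, Slco1a1 3.09 CPM and Cyp2c54 2.58 CPM. Of all genes named in the text, 92 of 259 overlap another annotated gene. Whether counting used the strand, and how it treated reads shared by near-identical copies, is not given in the sources used here, so single members of the Mup, Cyp2a, Cyp2b, Cyp2c, Cyp3a, Cyp4a, Sult2a, Serpina1, Ces and Gst families are uncertain.

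**Figure D1:**
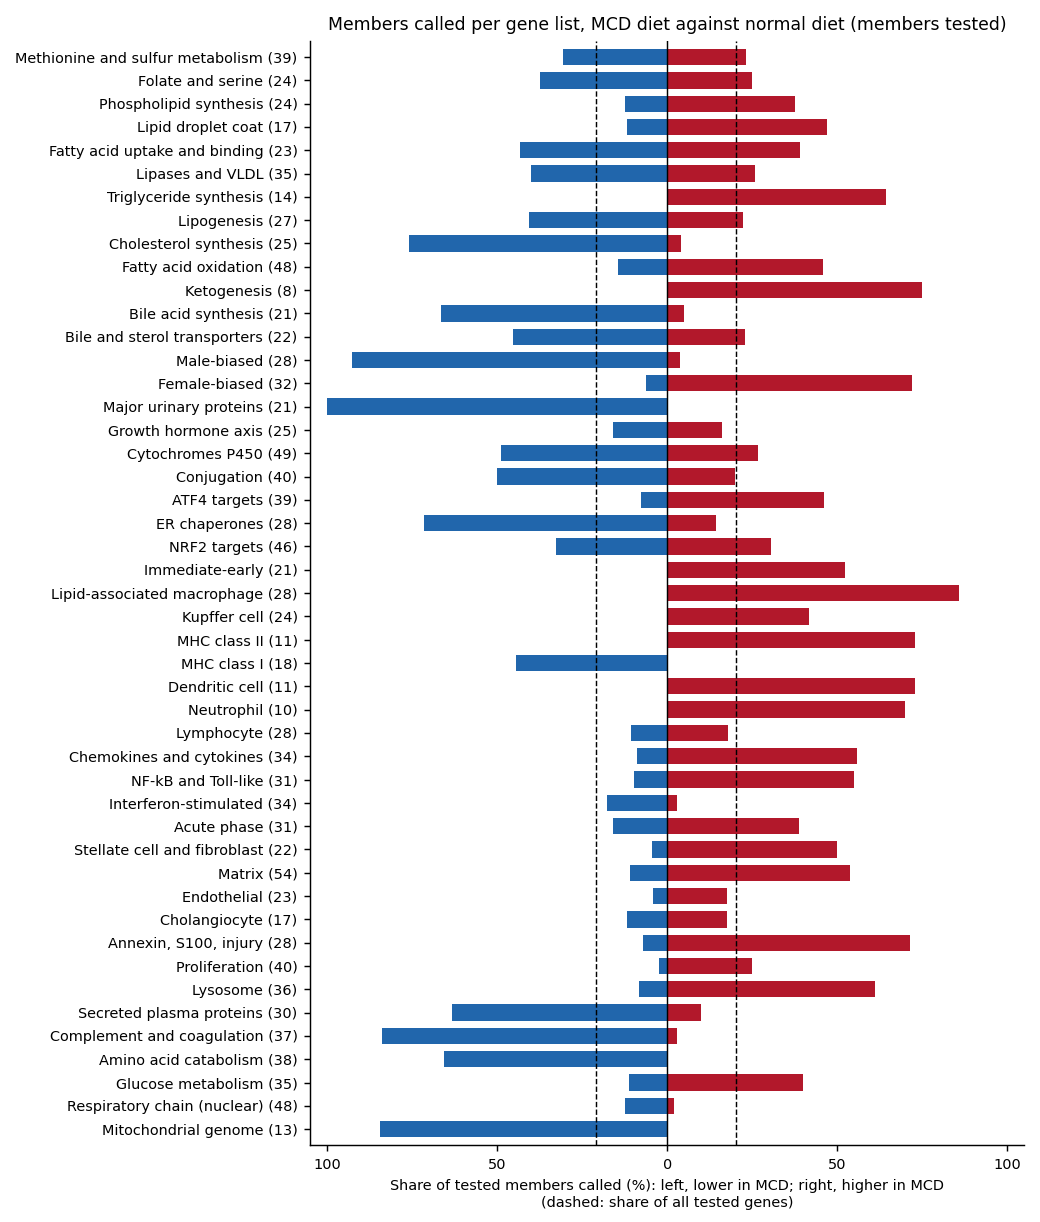
Share of tested members called lower (blue, to the left) and higher (red, to the right) in MCD livers than in normal-diet livers, in percent, for 47 gene lists with the number of members tested in parentheses. Dashed lines give the share of all tested genes, 21% lower and 20.3% higher. The male-biased and major urinary protein lists reach furthest to the left and the lipid-associated macrophage list furthest to the right.

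The genes of methionine use divided by step. Of 39 genes for the methionine cycle, sulfur amino acids and polyamines, 9 rose and 12 fell (median log2 fold change -0.12, against 0 over all genes tested). Scaled by library size alone 17 rose and 9 fell, so the direction of the list depends on the scaling. Mat1a, the hepatocyte form of methionine adenosyltransferase (chr14:41105012-41124428), had 5418, 4665, 4736 and 7329 CPM in MCD livers, against 4114, 2918, 3052 and 2666 CPM in normal-diet livers. The diets did not overlap at Mat1a, which rose by 0.80 ± 0.18 on the log2 scale (adjusted p = 0.00464). Mat2a, the form found in most other tissues and in growing liver, had 201, 276, 440 and 75.7 CPM in MCD livers, against 32.4, 39.3, 33.4 and 46 CPM in normal-diet livers. MCD replicate 4 was the lowest of its group and still above every normal-diet liver, and the log2 fold change was 2.72 ± 0.41 (adjusted p = 0.000312). Gnmt, which disposes of excess S-adenosylmethionine by methylating glycine, averaged 938 ± 276 CPM in MCD livers and 1908 ± 225 CPM in normal-diet livers, a log2 fold change of -1.02 ± 0.18.

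Genes for remethylating homocysteine showed small rises or none. Methionine synthase Mtr had a log2 fold change of 0.52 ± 0.16 (adjusted p = 0.0203), with libraries that overlapped between the diets. Its call was lost without MCD replicate 3 (0.41, adjusted p = 0.0669) or without normal diet replicate 3 (0.46, adjusted p = 0.0606). Mtrr, the reductase that keeps methionine synthase active, averaged 10.7 ± 1.28 CPM in MCD livers and 5.9 ± 1.54 CPM in normal-diet livers, a rise of 0.87 ± 0.20. Bhmt, which takes the methyl group from betaine, a product of choline, was not called at 5393 ± 1401 CPM in MCD livers and 5601 ± 2418 CPM in normal-diet livers.

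The transsulfuration and taurine branch fell at several members. Cbs, the cystathionine beta-synthase that commits homocysteine to cysteine, had 265, 221, 264 and 318 CPM in MCD livers, against 1058, 625, 708 and 483 CPM in normal-diet livers. The libraries did not overlap and the log2 fold change was -1.43 ± 0.24 (adjusted p = 0.000671). The next enzyme, Cth, was not called, at 593 ± 225 CPM in MCD livers and 834 ± 177 CPM in normal-diet livers (adjusted p = 0.169), and was called lower without MCD replicate 4 (-0.75, adjusted p = 0.0308). Cdo1, which oxidises cysteine, fell by 0.52 ± 0.13, a call lost by library size alone (-0.07, adjusted p = 0.65). Csad, which makes hypotaurine from cysteine sulfinate, fell further, at 56.5, 35.4, 25.4 and 10.2 CPM in MCD livers and 323, 75.8, 254 and 261 CPM in normal-diet livers (log2 fold change -2.84 ± 0.66). Sulfite oxidase Suox (-1.01 ± 0.17) and the persulfide dioxygenase Ethe1 (-1.50 ± 0.17) also fell. Other members of the list also fell. Gamt, the methyltransferase of creatine synthesis, had a log2 fold change of -1.29 ± 0.13, Pipox, an oxidase of sarcosine and pipecolate, -2.52 ± 0.23, and Aldh7a1, which oxidises betaine aldehyde and takes part in lysine breakdown, -1.58 ± 0.13. Odc1, the first enzyme of polyamine synthesis, rose to 161 ± 35.8 CPM in MCD livers, against 69.2 ± 5.5 CPM in normal-diet livers.

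Of the folate and serine genes named, Psat1, Phgdh, Aldh1l2 and Mthfd1l rose while Aldh1l1, Fpgs, Amt and Shmt2 fell. Of 24 folate and serine genes 6 rose and 9 fell, and by library size alone 11 rose and 3 fell. Psat1, the aminotransferase of serine synthesis (chr19:15905123-15925059), had 35.8, 23, 23.5 and 15 CPM in MCD livers, against 0.814, 0.406, 0.504 and 0.885 CPM in normal-diet livers. The lowest MCD liver was far above the highest normal-diet liver, and the log2 fold change was 5.21 ± 0.34 (adjusted p = 1.12e-06). Phgdh, which catalyses the step before it, was low throughout, at 0.465 ± 0.238 CPM in MCD livers and 0.081 ± 0.102 CPM in normal-diet livers. Its call (log2 fold change 2.45 ± 0.78, adjusted p = 0.0255) was lost without MCD replicate 2 (2.08, adjusted p = 0.0647), and its value was 3.48 without normal diet replicate 3. Aldh1l2, the mitochondrial 10-formyltetrahydrofolate dehydrogenase, rose by 3.55 ± 0.66 (2.90 without MCD replicate 2). Mthfd1l, which releases formate from mitochondria, rose by 3.36 ± 0.57 (4.58 without normal diet replicate 1). Mthfd2, the mitochondrial enzyme upstream of it, was not called at 3.03 ± 1.56 CPM in MCD livers and 1.69 ± 0.38 CPM in normal-diet livers. It was called without MCD replicate 1 (1.01, adjusted p = 0.0432) or without MCD replicate 4 (1.04, adjusted p = 0.0411). DESeq2 (0.88, adjusted p = 0.0479), limma-voom (0.95, adjusted p = 0.0243) and library size alone (1.32, adjusted p = 0.0136) also called it higher. The cytosolic counterpart of Aldh1l2, Aldh1l1, fell (-1.08 ± 0.16), as did Fpgs, which adds the glutamate tail that retains folate in cells (-1.35 ± 0.19), and Amt of the glycine cleavage system (-1.18 ± 0.15). Shmt2, the mitochondrial serine hydroxymethyltransferase, also fell (-0.63 ± 0.12), a call lost when scaled by library size alone (-0.16, adjusted p = 0.179).

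The enzymes that define the 2 routes to phosphatidylcholine were not called. Pemt had 222, 211, 225 and 304 CPM in MCD livers, against 248, 219, 228 and 219 CPM in normal-diet livers. The diets overlapped (log2 fold change 0.07 ± 0.12, adjusted p = 0.661). Pcyt1a, the rate-limiting enzyme of the CDP-choline route, had a log2 fold change of 0.20 ± 0.11 (adjusted p = 0.153). Both were called higher by library size alone, at 0.52 (adjusted p = 0.00193) for Pemt and 0.66 (adjusted p = 0.000228) for Pcyt1a. Choline kinase Chka averaged 17.1 ± 7.13 CPM in MCD livers and 41.5 ± 37.3 CPM in normal-diet livers, where replicate 1 reached 96.6 CPM. It was not called (adjusted p = 0.0589). Chka was called lower without normal diet replicate 4 (-1.57, adjusted p = 0.019) and with limma-voom (-1.09, adjusted p = 0.0481). Its value shrank without normal diet replicate 1 (-0.44, adjusted p = 0.314). The choline transporter Slc44a1 fell (-0.94 ± 0.12), as did Pcyt2 (-0.68 ± 0.12) and Selenoi (-0.60 ± 0.10) of the CDP-ethanolamine route. The Pcyt2 and Selenoi calls were lost by library size alone (-0.22, adjusted p = 0.194 and -0.14, adjusted p = 0.391). In all, 9 of 24 phospholipid genes rose and 3 fell. The rises included the 3 lipins, phosphatidate phosphatases that make diacylglycerol. Lpin2 rose by 1.19 ± 0.28, Lpin3 by 1.58 ± 0.30 and Lpin1 by 1.55 ± 0.42 (2.15 without normal diet replicate 4). They also included phosphatidylserine synthase Ptdss2 (0.78 ± 0.12) and Lpcat3, which places unsaturated fatty acids in lysophosphatidylcholine (0.69 ± 0.15).

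**Figure D2:**
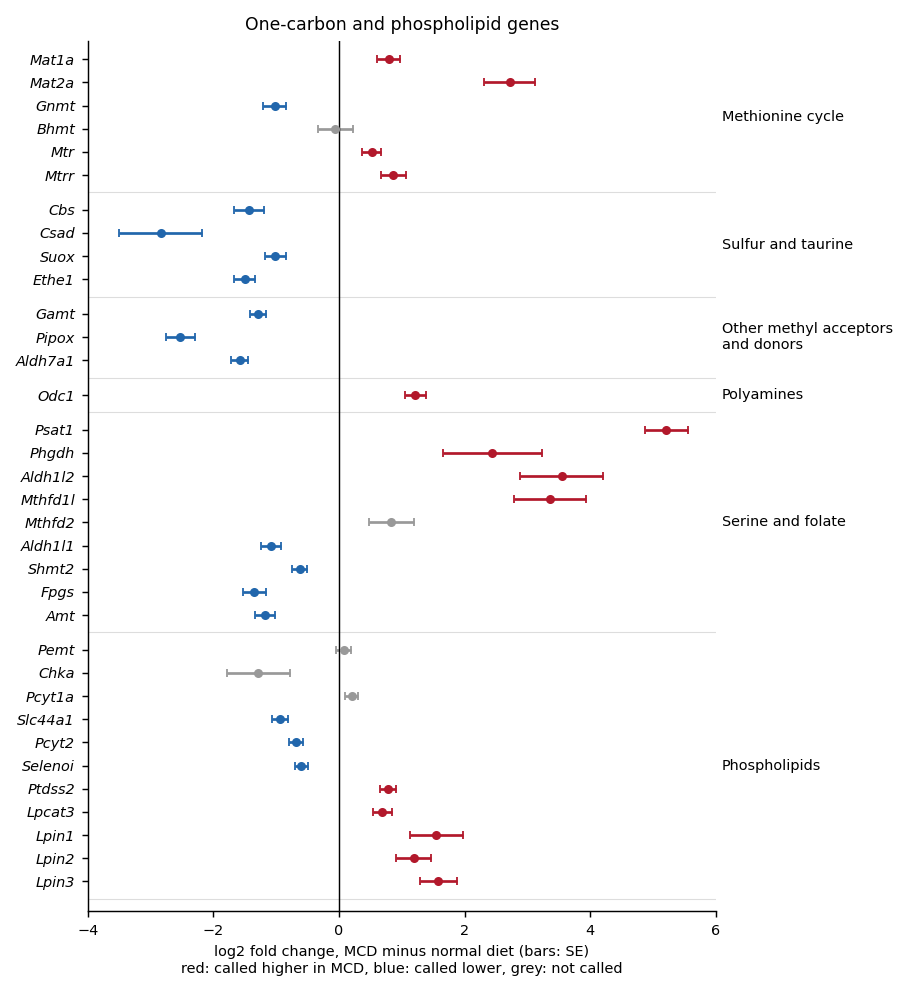
Log2 fold change of MCD livers over normal-diet livers (x axis, bars show SE) for named one-carbon and phospholipid genes, grouped by role. Red marks genes called higher, blue genes called lower and grey genes not called. Psat1 lies furthest to the right at 5.21 and Csad furthest to the left at -2.84, while Bhmt, Pemt and Pcyt1a lie near 0.

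Genes that coat and enlarge lipid droplets rose. Of 17 tested members of the list of 19, 8 rose and 2 fell (median 0.41). Cidec, which fuses droplets into larger ones (chr6:113424634-113435760), had 102, 129, 73.9 and 26.6 CPM in MCD livers, against 0.444, 0.474, 0.755 and 2.44 CPM in normal-diet livers. MCD replicate 4 had the lowest level of its group and normal diet replicate 4 the highest of its own, yet the groups did not overlap. The log2 fold change was 6.34 ± 0.62 (adjusted p = 1.52e-05), and 7.21 without normal diet replicate 4. Plin2, the main droplet coat protein of hepatocytes, had 1234, 1256, 982 and 748 CPM in MCD livers, against 243, 321, 355 and 300 CPM in normal-diet livers (log2 fold change 1.79 ± 0.18). Plin4 (3.70 ± 0.40), Plin5, which ties droplets to mitochondria (1.37 ± 0.15), Fitm2, needed for droplets to bud from the endoplasmic reticulum (1.54 ± 0.21), and G0s2, an inhibitor of adipose triglyceride lipase (1.56 ± 0.25), rose as well. The members that fell were Fitm1 (-1.86 ± 0.35) and Pnpla3, the lipase-family gene linked to human fatty liver (-2.28 ± 0.62). Libraries overlapped between the diets at both, Pnpla3 was at most 0.145 CPM in MCD livers and 0.88 CPM in normal-diet livers, and its call was lost with limma-voom (adjusted p = 0.0701).

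Uptake genes of the cell surface rose while binding proteins inside the hepatocyte fell. Of 23 genes for fatty acid uptake and binding 9 rose and 10 fell, against 10 and 6 by library size alone. Beside Cd36, the rises included lipoprotein lipase Lpl, at 74.8, 201, 112 and 107 CPM in MCD livers and 47.2, 31.5, 14 and 21 CPM in normal-diet livers (log2 fold change 2.12 ± 0.39). The VLDL receptor Vldlr rose by 2.35 ± 0.47, the adipocyte and macrophage binding protein Fabp4 by 1.11 ± 0.22, and Acsl4, which activates long polyunsaturated fatty acids, by 1.61 ± 0.14. Fabp1, the abundant binding protein of hepatocytes (chr6:71199879-71205034), had 712, 674, 834 and 574 CPM in MCD livers, against 1798, 2689, 3130 and 3757 CPM in normal-diet livers. The groups did not overlap and the log2 fold change was -2.03 ± 0.24 (adjusted p = 6.91e-05). Scp2, the sterol carrier (-1.38 ± 0.11), Dbi, the acyl-CoA binding protein (-1.04 ± 0.10), the medium-chain acyl-CoA synthetase Acsm5 (-2.23 ± 0.17) and Slc27a5, which activates bile acids and very long chain fatty acids (-1.88 ± 0.15), fell too.

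Triglyceride synthesis genes rose and none of the 14 tested fell, with 9 called. Gpat3, an acyltransferase that starts glycerolipid synthesis, had 37.6, 41.2, 29.9 and 38.2 CPM in MCD livers, against 3.79, 2.26, 4.51 and 1.29 CPM in normal-diet livers (log2 fold change 3.62 ± 0.30, adjusted p = 5.17e-06). Glycerol kinase Gk averaged 221 ± 18 CPM in MCD livers and 73.5 ± 4.64 CPM in normal-diet livers (log2 fold change 1.59 ± 0.11). The monoacylglycerol acyltransferase Mogat2 had 5.04, 6.95, 9.16 and 9.69 CPM in MCD livers, against 0, 0.541, 0.291 and 0.173 CPM in normal-diet livers. Its log2 fold change was 4.97 ± 0.57, and 5.64 without normal diet replicate 2. Agpat1 (1.14 ± 0.14) and Dgat1 (0.57 ± 0.13) of the later steps rose. Dgat2, the other enzyme of the last step, was not called (0.38 ± 0.17, adjusted p = 0.087), though it was without MCD replicate 2 (0.49, adjusted p = 0.028). DESeq2 (0.41, adjusted p = 0.0434), limma-voom (0.35, adjusted p = 0.0342) and library size alone (0.85, adjusted p = 0.000638) also called it higher.

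Lipases and lipoprotein genes moved both ways, 9 of 35 rising and 14 falling, and 15 rising and 12 falling by library size alone. The carboxylesterases fell most among the members named. Ces3b (chr8:105083733-105093929) had 18.9, 11.9, 21 and 23.2 CPM in MCD livers, against 409, 513, 457 and 579 CPM in normal-diet livers. The groups were separated widely, at a log2 fold change of -4.71 ± 0.22 (adjusted p = 1.54e-07). Ces2a fell by 4.43 ± 0.25, Ces1f by 2.79 ± 0.24 and Ces3a by 2.58 ± 0.16. The adipose triglyceride lipase Pnpla2 rose instead (1.58 ± 0.19), as did endothelial lipase Lipg (1.88 ± 0.33) and Angptl4, an inhibitor of lipoprotein lipase (1.95 ± 0.29). Apoa4, an apolipoprotein of triglyceride-rich particles, had 4805, 7752, 5336 and 2672 CPM in MCD livers, against 211, 102, 117 and 82.4 CPM in normal-diet livers (log2 fold change 5.33 ± 0.40). Apoc2, the activator of lipoprotein lipase, rose (1.29 ± 0.18), while Apoa1 of high density lipoprotein (-1.56 ± 0.17) and Apoc1 (-1.15 ± 0.13) fell.

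The core of the VLDL particle was not called. Apob averaged 7245 ± 1030 CPM in MCD livers and 5721 ± 317 CPM in normal-diet livers (log2 fold change 0.34 ± 0.14, adjusted p = 0.0666). It was called higher without MCD replicate 1 (0.42, adjusted p = 0.038) and with DESeq2 (0.37, adjusted p = 0.00957). Limma-voom (0.29, adjusted p = 0.0254), relative log expression factors (0.37, adjusted p = 0.0448) and a stricter count filter (0.36, adjusted p = 0.0469) also called it higher. So did library size alone (0.80, adjusted p = 0.000174), so the Apob result depends on the setting. Mttp, the transfer protein that loads lipid onto apolipoprotein B, averaged 276 ± 28 CPM in MCD livers and 335 ± 45.1 CPM in normal-diet livers (-0.28 ± 0.12, adjusted p = 0.079). Mttp was called lower without normal diet replicate 1 (-0.37, adjusted p = 0.0181) and with limma-voom (-0.32, adjusted p = 0.0137). By library size alone its sign turned (0.19, adjusted p = 0.105).

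Among genes of new fatty acid synthesis and desaturation, the delta-9 desaturase Scd1 fell while the polyunsaturated desaturases Fads2 and Fads1 rose. The desaturase and elongase genes of the list that are not named here included rises, falls and genes not called. Scd1, the delta-9 desaturase that makes oleate (chr19:44394450-44407709), had 154, 136, 120 and 49.4 CPM in MCD livers, against 13568, 10024, 9513 and 6640 CPM in normal-diet livers. It fell by 6.44 ± 0.65 on the log2 scale (adjusted p = 1.98e-05), with the highest MCD liver far under the lowest normal-diet liver. Elovl3, an elongase of saturated and monounsaturated fatty acids, fell by 6.41 ± 0.51. Fads2, the delta-6 desaturase of polyunsaturated fatty acids, averaged 1958 ± 177 CPM in MCD livers and 682 ± 82.4 CPM in normal-diet livers (log2 fold change 1.52 ± 0.12), and Fads1, the delta-5 desaturase, rose by 0.72 ± 0.14.

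Of the 27 lipogenic genes 6 rose and 11 fell, and 11 and 11 by library size alone. The transcription factors Srebf1 (-1.81 ± 0.27) and Mlxipl, which encodes ChREBP (-1.44 ± 0.25), fell. So did fatty acid synthase Fasn, at 93.2, 82.3, 300 and 140 CPM in MCD livers and 437, 576, 505 and 341 CPM in normal-diet livers (log2 fold change -1.60 ± 0.38). ATP citrate lyase Acly (-1.21 ± 0.20), the acetyl-CoA synthetase Acss2 (-1.97 ± 0.24) and the lipogenic regulator Thrsp (-2.55 ± 0.57) went with them. Another 10 genes of the list were not called, among them those of acetyl-CoA carboxylase 1 (-0.06 ± 0.13) and 2 (0.30 ± 0.25). The NADPH-producing pentose phosphate genes Pgd (1.43 ± 0.20) and G6pdx (1.33 ± 0.24) rose. In cholesterol synthesis 19 of 25 genes fell and 1 rose (median -1.15, and 15 falls by library size alone). Tm7sf2, a sterol reductase, averaged 21.6 ± 5.95 CPM in MCD livers and 156 ± 19.4 CPM in normal-diet livers (log2 fold change -2.86 ± 0.18). Sc5d (-1.23 ± 0.12), Ebp (-1.33 ± 0.15) and Mvd (-1.49 ± 0.17) of the same pathway fell.

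Fatty acid oxidation genes rose more often than they fell, 22 against 7 of 48 tested, and 38 against 1 by library size alone. The falls numbered 3 without MCD replicate 2, MCD replicate 3 or normal diet replicate 4, and 4 without normal diet replicate 3. Cyp4a14, an omega-hydroxylase and a known target of PPAR alpha, had 3177, 2100, 2024 and 3482 CPM in MCD livers, against 167, 230, 346 and 108 CPM in normal-diet livers (log2 fold change 3.66 ± 0.35, adjusted p = 1.45e-05). Its relative Cyp4a31 rose by 4.23 ± 0.31 and the peroxisomal thioesterase Acot4 by 2.47 ± 0.21. Cpt1a, which admits fatty acids to mitochondria and is named after its values were seen, rose by 0.88 ± 0.16. The falls included Cyp4a12a, a male-biased omega-hydroxylase, at 3.58, 1.92, 3.62 and 19.2 CPM in MCD livers and 271, 386, 334 and 344 CPM in normal-diet livers. Its log2 fold change was -5.56 ± 0.71, and -6.76 without MCD replicate 4. Acaa2, the last enzyme of mitochondrial beta-oxidation, fell by 0.49 ± 0.14, a call lost by library size alone (-0.03, adjusted p = 0.846). The falls not named here, at log2 fold changes of -0.31 to -0.74, were also genes of beta-oxidation or of carnitine transfer of fatty acids. In ketone body synthesis and transport 6 of 8 genes rose and none fell, with the monocarboxylate transporter Slc16a7 at 1.85 ± 0.12 and the hydroxybutyrate dehydrogenase Bdh1 at 0.86 ± 0.10.

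**Figure D3:**
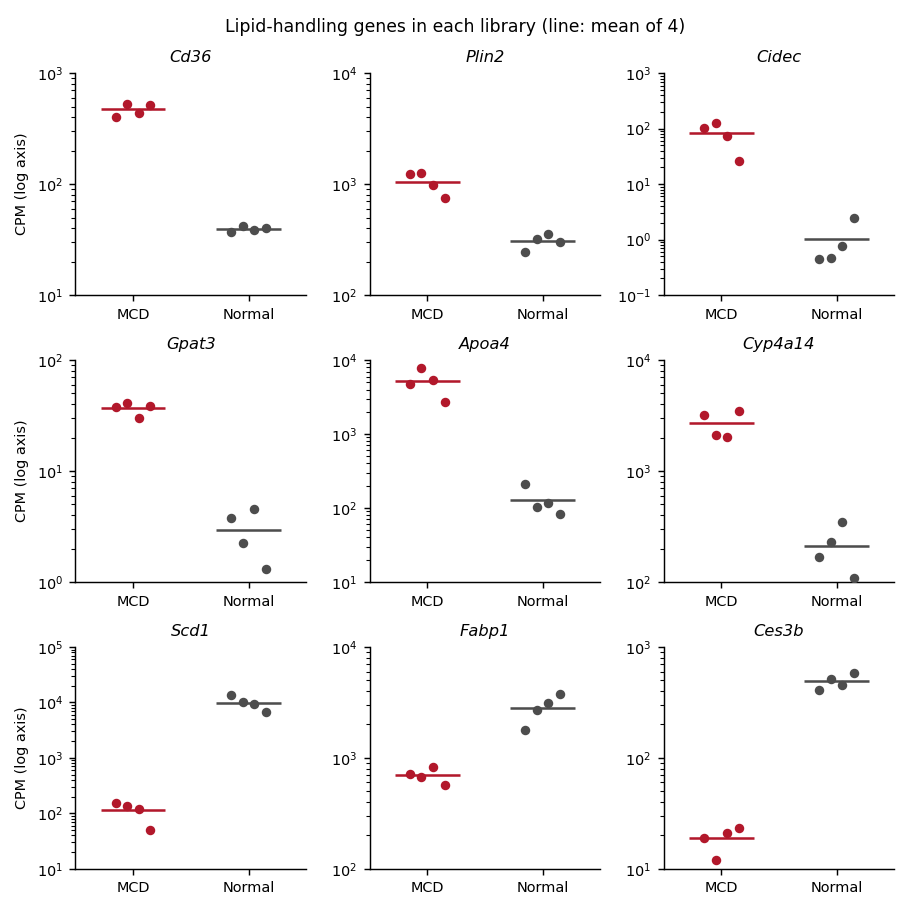
CPM in each library (log axis) of 9 lipid-handling genes in MCD livers (red) and normal-diet livers (grey), with the mean of 4 libraries as a line. In each of the 9 panels the groups do not overlap. Cd36, Plin2, Cidec, Gpat3, Apoa4 and Cyp4a14 are higher in MCD livers and Scd1, Fabp1 and Ces3b are lower.

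Of 21 bile acid synthesis and regulatory genes 14 fell and 1 rose (median -0.97), and 10 fell and 3 rose by library size alone. Cyp7a1, the rate-limiting enzyme of the classic pathway, had 241, 120, 216 and 73.4 CPM in MCD livers and 107, 110, 58.5 and 209 CPM in normal-diet livers. The groups overlapped and it was not called (adjusted p = 0.434). Cyp8b1, which sets the share of cholic acid, was not called either, at 306 ± 138 CPM in MCD livers and 345 ± 78.6 CPM in normal-diet livers. The alternative pathway fell, with Cyp7b1 at 25, 10.8, 21.9 and 28.1 CPM in MCD livers, against 150, 392, 293 and 556 CPM in normal-diet livers (log2 fold change -4.02 ± 0.39). Cyp27a1 fell by 1.90 ± 0.19, and Baat, which conjugates bile acids to taurine and glycine, by 1.22 ± 0.15. Nr0b2, the repressor SHP induced by bile acids, fell by 2.07 ± 0.54 (by 3.06 without MCD replicate 4). Cyp39a1, an oxysterol hydroxylase, was the member that rose, to 118, 136, 126 and 221 CPM in MCD livers, against 33.5, 37, 38.1 and 38.8 CPM in normal-diet livers (log2 fold change 2.03 ± 0.18). Among bile transporters 5 of 22 rose and 10 fell, and 12 rose and 7 fell by library size alone. The canalicular bile salt pump Abcb11 (-1.55 ± 0.16) and the sodium-dependent uptake carrier Slc10a1 (-1.84 ± 0.24) fell. The efflux pumps Abcb1a (3.06 ± 0.26) and Abcc4 (2.87 ± 0.43) rose.

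The sex-biased programme of the liver changed, with male-biased genes lower and female-biased genes higher in MCD livers. In rodents the pulsatile secretion of growth hormone in males, read through the GH receptor and STAT5B, keeps male-biased liver genes on and many female-biased genes off. Of 28 genes tested in the male-biased list 26 fell and 1 rose (median -3.91), against a background of 21% lower. Of 32 female-biased genes tested in the list of 33, 23 rose and 2 fell (median 3.49), against a background of 20.3% higher. By library size alone the counts were 25 and 1 for the male-biased list and 25 and 2 for the female-biased one.

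Among female-biased genes, Sult1e1, which sulfates estrogens (chr5:87575968-87591611), had 175, 372, 331 and 414 CPM in MCD livers, against 0.037, 0.18, 0 and 0 CPM in normal-diet livers. Its log2 fold change was 12.57 ± 0.57 (adjusted p = 1.54e-07), and 14.38 without normal diet replicate 2. It was above 100 CPM in every MCD liver and at or near 0 in every normal-diet liver. The cytochrome Cyp2b9 had 214, 167, 228 and 371 CPM in MCD livers and at most 0.852 CPM in normal-diet livers. Cyp2a4, a testosterone 15-alpha-hydroxylase, averaged 1251 ± 243 CPM in MCD livers and 17.5 ± 8.68 CPM in normal-diet livers (log2 fold change 6.16 ± 0.38). The female-biased repressor Cux2 was low on both diets, at 2.24 ± 1.65 CPM in MCD livers and 0.124 ± 0.0578 CPM in normal-diet livers (4.13 ± 0.57, and 3.54 without MCD replicate 1). Fmo2 rose by 3.16 ± 0.22. The female-biased genes that fell instead were Cyp2c40 (-1.12 ± 0.29) and Cyp2c69 (-2.39 ± 0.35).

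Among male-biased genes, Hsd3b5, a steroid reductase of the male liver (chr3:98618636-98645534), had 0.183, 0, 0.106 and 0.296 CPM in MCD livers, against 86.8, 156, 179 and 350 CPM in normal-diet livers. It fell by 10.39 ± 0.71 on the log2 scale. Slco1a1, an organic anion uptake carrier, had 5.63, 0.687, 3.51 and 2.53 CPM in MCD livers, against 229, 373, 367 and 664 CPM in normal-diet livers (log2 fold change -7.05 ± 0.59). Both groups were far apart at these genes, with no overlap. The selenium-binding protein gene Selenbp2 (-5.12 ± 0.31), the antitrypsin Serpina1e (-4.34 ± 0.27) and the terminal complement genes C6 (-3.80 ± 0.19) and C8b (-3.75 ± 0.23) fell. Trim24, a ubiquitin ligase and nuclear receptor coregulator, was the member of the male-biased list that rose (1.58 ± 0.15). All mice were male, so the sex bias of Trim24 and of other members was not tested here. The major urinary proteins, pheromone carriers that male mice make in large amounts, fell at 21 of 21 tested genes of the list of 22, under both scalings. Mup3 (chr4:62083476-62087317) had 93.9, 112, 147 and 134 CPM in MCD livers, against 6825, 8533, 9747 and 11716 CPM in normal-diet livers (log2 fold change -6.24 ± 0.29).

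**Figure D4:**
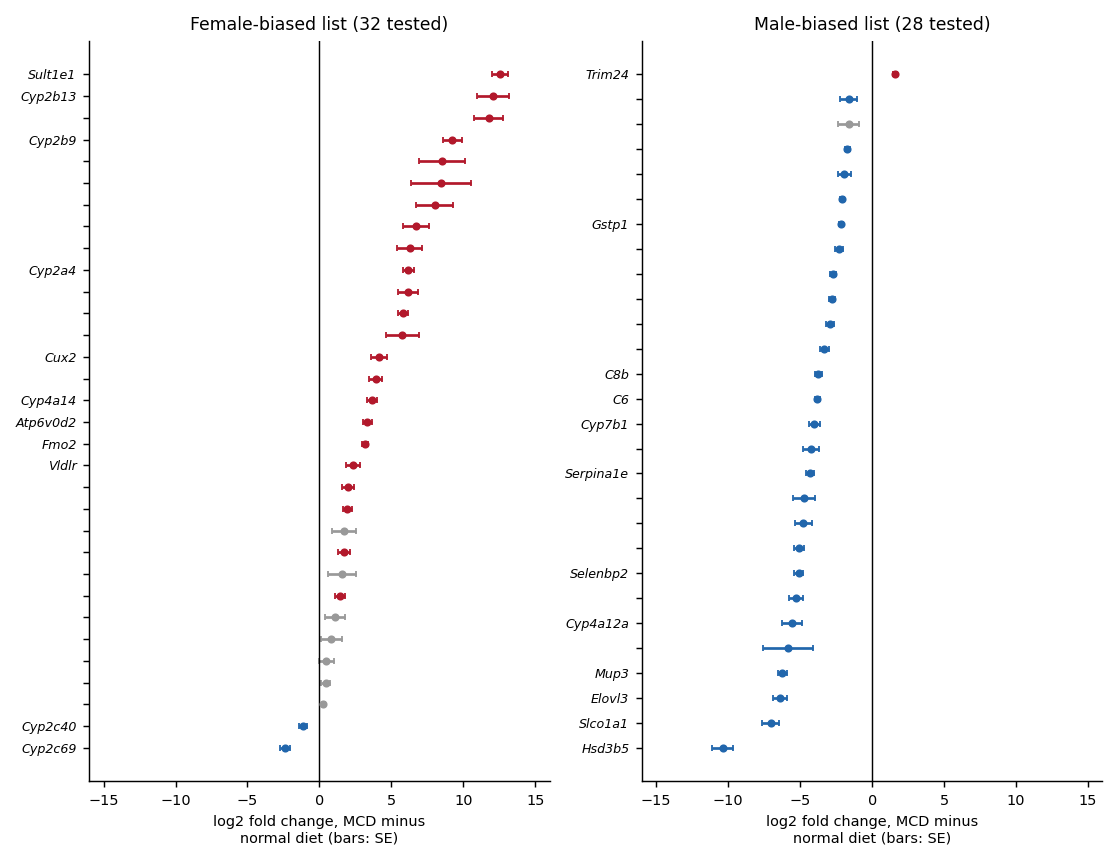
Log2 fold change of MCD livers over normal-diet livers (x axis, bars show SE) for the 32 tested genes of the female-biased list (left) and the 28 of the male-biased list (right). Genes are in order of fold change, with the names of those given in the text. Red is called higher, blue called lower and grey not called. Values above 10 belong to genes with few or no reads on normal diet, whose fitted fold change is uncertain. The red points lie mostly on the left panel and the blue points mostly on the right panel.

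The growth hormone axis itself had fewer calls, 4 of 25 higher and 4 lower (11 and 3 by library size alone, 7 higher without normal diet replicate 1, and 2 higher without MCD replicate 2 or normal diet replicate 2 or 3). The receptor Ghr had 167, 132, 145 and 170 CPM in MCD livers, against 436, 487, 545 and 610 CPM in normal-diet livers. The groups did not overlap and the log2 fold change was -1.76 ± 0.13 (adjusted p = 2.02e-06). Igf1, the circulating growth factor made under growth hormone, fell by 1.04 ± 0.15, and its partner in plasma Igfals by 1.44 ± 0.22. Stat5b fell by 0.75 ± 0.11, a call lost by library size alone (-0.29, adjusted p = 0.0544). The leptin receptor Lepr rose to 48.2, 51, 60.7 and 17.3 CPM in MCD livers, against 8.01, 0.948, 2.07 and 2.4 CPM in normal-diet livers (log2 fold change 3.71 ± 0.57, and 4.61 without normal diet replicate 1).

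Drug-metabolising genes fell more often than they rose. Of 49 cytochrome genes 13 rose and 24 fell, and of 40 conjugation genes 8 rose and 20 fell, against 21 and 21 and against 11 and 15 by library size alone. Cyp2c54 had 1.59, 0.977, 1.33 and 6.42 CPM in MCD livers, against 109, 450, 317 and 373 CPM in normal-diet livers (log2 fold change -6.93 ± 0.75, and -7.88 without MCD replicate 4). Aldehyde oxidase Aox1 fell to 21.5 ± 1.66 CPM in MCD livers, against 87.5 ± 10.7 CPM in normal-diet livers. Por, the electron donor of the microsomal cytochromes, rose to 815 ± 201 CPM in MCD livers, against 291 ± 53.4 CPM in normal-diet livers (log2 fold change 1.49 ± 0.19).

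Targets of ATF4, the transcription factor that responds to amino acid shortage and other stresses sensed through phosphorylation of eIF2 alpha, rose as a group. ATF4 binds composite C/EBP-ATF elements, and its own level is set mainly by translation. Of 39 targets 18 rose and 3 fell (median 0.77), and 29 rose and 1 fell by library size alone. The letters TGATGNAA on either strand were present in the promoter window, 250 bases before to 50 bases after the start, of 11 of 33 targets with a window (33.3%), against 1219 of 27025 genes (4.51%). Of the 19 called targets with a window 10 held it, among them the tRNA synthetase gene Aars, which fell and holds 2 matches. A match describes the letters and is not a binding site, and the list was drawn from known ATF4 targets, some of them defined by this element. The windows of 4 targets are shown because these genes rose and carry the letters, which are in capitals. They are the RefSeq GRCm38.p6 sequences on the minus strand, written 5′ to 3′ in the direction of the gene, of Slc7a11 (chr3:50443564-50443863), Fgf21 (chr7:45615441-45615740), Asns (chr6:7693160-7693459) and Nupr1 (chr7:126625421-126625720).
Slc7a11: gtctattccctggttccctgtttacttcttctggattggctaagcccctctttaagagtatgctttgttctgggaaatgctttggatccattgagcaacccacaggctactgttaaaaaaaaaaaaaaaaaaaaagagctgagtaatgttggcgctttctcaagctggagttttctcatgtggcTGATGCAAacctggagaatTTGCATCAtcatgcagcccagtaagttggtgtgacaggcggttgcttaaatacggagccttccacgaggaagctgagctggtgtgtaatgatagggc
Fgf21: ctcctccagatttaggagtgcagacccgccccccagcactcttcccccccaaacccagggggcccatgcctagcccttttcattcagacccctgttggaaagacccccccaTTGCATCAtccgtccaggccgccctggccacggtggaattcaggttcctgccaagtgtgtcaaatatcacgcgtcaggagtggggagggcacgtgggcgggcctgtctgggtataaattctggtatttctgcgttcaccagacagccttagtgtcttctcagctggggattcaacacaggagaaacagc
Asns: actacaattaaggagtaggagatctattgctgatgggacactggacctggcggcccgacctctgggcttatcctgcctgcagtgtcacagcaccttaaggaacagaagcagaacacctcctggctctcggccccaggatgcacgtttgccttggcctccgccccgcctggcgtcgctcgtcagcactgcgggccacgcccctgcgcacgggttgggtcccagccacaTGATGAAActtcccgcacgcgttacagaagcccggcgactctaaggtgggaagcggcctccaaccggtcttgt
Nupr1: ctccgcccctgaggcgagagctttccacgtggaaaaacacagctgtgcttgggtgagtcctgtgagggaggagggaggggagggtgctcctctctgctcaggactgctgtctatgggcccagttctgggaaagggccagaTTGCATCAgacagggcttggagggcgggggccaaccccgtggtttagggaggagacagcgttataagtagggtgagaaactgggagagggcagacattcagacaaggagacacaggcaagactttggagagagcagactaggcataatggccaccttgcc

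The element begins 139 bases before the start in Fgf21, 110 in Nupr1 and 23 in Asns, and Slc7a11 holds it both 66 and 47 bases before its start. Fgf21, the hormone of fasting and amino acid shortage, had 7.37, 11.9, 10.6 and 4.05 CPM in MCD livers, against 0.0925, 0, 0.0775 and 0.194 CPM in normal-diet livers (log2 fold change 6.50 ± 0.51, and 7.10 without normal diet replicate 4). Asns, asparagine synthetase, had 41.2, 26.1, 25.8 and 24.1 CPM in MCD livers, against 15.3, 6.43, 5.5 and 8.98 CPM in normal-diet livers (1.69 ± 0.35). The lowest MCD liver was above the highest normal-diet liver at both genes. Nupr1, a chromatin-associated stress protein, had 17, 41.8, 14.9 and 9.93 CPM in MCD livers, against 1.15, 0.722, 0.484 and 0.971 CPM in normal-diet livers (4.65 ± 0.54, and 4.06 without MCD replicate 2). Slc7a11, the cystine importer that feeds glutathione synthesis, had 1.04, 14.4, 2.77 and 3.2 CPM in MCD livers, against 0.148, 0, 0 and 0 CPM in normal-diet livers. MCD replicate 2 stood above the rest of its group, and the log2 fold change of 6.98 ± 1.09 was 5.79 without it and 11.36 without normal diet replicate 1.

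Atf3, a repressor induced by ATF4, had 9.88, 35, 20.6 and 18.1 CPM in MCD livers, against 1.42, 0.948, 0.736 and 0.863 CPM in normal-diet livers (log2 fold change 4.39 ± 0.37). The mitochondrial PEP carboxykinase Pck2 (2.47 ± 0.28), the arginine and lysine carrier Slc7a1 (2.34 ± 0.37), the pseudokinase Trib3 (1.36 ± 0.39), the transcription factor CHOP, encoded by Ddit3 (1.17 ± 0.26), the translation repressor Eif4ebp1 (0.92 ± 0.10) and the glycyl-tRNA synthetase Gars (0.77 ± 0.11) rose too. The mRNA of Atf4 itself was not called, at 46.1, 66.5, 82.9 and 105 CPM in MCD livers and 76.1, 68.6, 87.4 and 78.6 CPM in normal-diet livers. The targets that fell were Cbs and Shmt2, given above, and the alanyl-tRNA synthetase Aars (-0.61 ± 0.15), whose call was lost by library size alone (-0.16, adjusted p = 0.348).

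Chaperones of the endoplasmic reticulum, which other arms of the unfolded protein response control, went the other way. Of 28 genes 4 rose and 20 fell (median -0.68), but 7 rose and 5 fell by library size alone, and 2 rose without normal diet replicate 2. The falls named here kept their call under that scaling. Sdf2l1, a stress-inducible chaperone cofactor, averaged 12 ± 5.98 CPM in MCD livers and 56 ± 21.6 CPM in normal-diet livers (log2 fold change -2.22 ± 0.33). Syvn1, the ubiquitin ligase of endoplasmic reticulum degradation, fell by 1.60 ± 0.28 and the disulfide isomerase Pdia6 by 0.88 ± 0.15. P4hb, another disulfide isomerase and a subunit of microsomal triglyceride transfer protein and of collagen prolyl hydroxylase, rose by 0.75 ± 0.13, and Derl1, which takes part in export of misfolded proteins, by 0.54 ± 0.12. The sensor genes Atf6 (0.35 ± 0.10, adjusted p = 0.0182) and Eif2ak3, which encodes PERK (0.37 ± 0.14, adjusted p = 0.0463), were the other members that rose. The Atf6 call was lost without normal diet replicate 2 (0.30, adjusted p = 0.0568). That of Eif2ak3 was lost with a replicate block (adjusted p = 0.07) and without any 1 of 6 libraries. Targets of the oxidant sensor NRF2 divided evenly, 14 of 46 rising and 15 falling (23 and 9 by library size alone). Heme oxygenase Hmox1 had 34.8, 102, 58.3 and 67.1 CPM in MCD livers, against 16.1, 16.1, 9.97 and 10.2 CPM in normal-diet livers (log2 fold change 2.32 ± 0.31). Sulfiredoxin Srxn1 rose by 1.45 ± 0.20 and the quinone reductase Nqo1 by 1.21 ± 0.15. Catalase Cat (-1.34 ± 0.12) and Gstp1 (-2.18 ± 0.15), which is also male-biased, fell.

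Markers of lipid-associated macrophages, the TREM2-positive cells that gather around fat-laden or dying hepatocytes, rose at 24 of 28 genes and fell at none (median 2.32). Trem2, the lipid-sensing receptor, had 8.18, 18.5, 9.95 and 8.32 CPM in MCD livers, against 0.518, 0.0451, 0.213 and 0.173 CPM in normal-diet livers (log2 fold change 5.51 ± 0.52, and 6.24 without normal diet replicate 1). Gpnmb, a lysosomal glycoprotein of such cells (chr6:49036518-49058182), had 136, 347, 197 and 146 CPM in MCD livers, against 0.851, 0.293, 0 and 0.0647 CPM in normal-diet livers (9.36 ± 0.82, and 10.8 without normal diet replicate 1). Macrophage elastase Mmp12 had 46.5, 187, 99.9 and 61.7 CPM in MCD livers, against 1.42, 0.158, 0.116 and 0.108 CPM in normal-diet livers (7.71 ± 0.84, and 9.58 without normal diet replicate 1). MCD replicate 2 was highest at all 3 genes, and no MCD liver overlapped a normal-diet liver. Galectin-3 Lgals3 rose by 4.64 ± 0.44, the integrin Itgax by 4.15 ± 0.44, the tetraspanin Cd63 by 3.49 ± 0.34 and the lysosomal protease Ctsd by 1.20 ± 0.13. The summed list had 18500 to 21900 CPM in MCD livers and 15900 to 17500 CPM in normal-diet livers. Most of that sum was Apoe, which hepatocytes make and which was not called, at 13626 ± 1394 CPM in MCD livers and 14631 ± 577 CPM in normal-diet livers. Plin2, Lpl and Ctsd of the list are also hepatocyte or lysosomal genes described in other lists.

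Markers of resident Kupffer cells did not follow as one. Of 24 genes 10 rose and none fell, with a summed level of 773 to 1630 CPM in MCD livers and 497 to 1040 CPM in normal-diet livers. Without normal diet replicate 2 the rises numbered 17, and 1 gene fell without MCD replicate 4 or normal diet replicate 1 or 4. The members that rose included macrophage genes at large, such as the phagosome protein Cd68 (2.52 ± 0.41), lysozyme Lyz2 (2.00 ± 0.41) and the engulfment receptor Mertk (1.52 ± 0.18). A pair of genes that define Kupffer cells, named after their values were seen, were not called. They do not stand for the list, whose median log2 fold change was 0.99. Clec4f, a lectin of mature Kupffer cells, had 24.1, 69.2, 63.9 and 42.8 CPM in MCD livers and 29.6, 118, 43.7 and 43.7 CPM in normal-diet livers (log2 fold change -0.23 ± 0.40). Its sign turned without normal diet replicate 2 (0.36, adjusted p = 0.366). Timd4, the phosphatidylserine receptor of embryo-derived Kupffer cells, averaged 1.95 ± 0.545 CPM in MCD livers and 4.16 ± 3.4 CPM in normal-diet livers (adjusted p = 0.064). It was called lower without normal diet replicate 1 (-1.34, adjusted p = 0.0219) or without normal diet replicate 4 (-1.27, adjusted p = 0.0479). DESeq2 also called Timd4 lower (-1.05, adjusted p = 0.0374). The value shrank without normal diet replicate 2 (-0.35, adjusted p = 0.33).

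Antigen presentation diverged between its classes. MHC class II genes, which present to CD4 T cells, rose at 8 of 11 and fell at none, with a sum of 274 to 453 CPM in MCD livers and 88.4 to 124 CPM in normal-diet livers. H2-Ab1 averaged 40.2 ± 5.44 CPM in MCD livers and 15.2 ± 3.49 CPM in normal-diet livers (log2 fold change 1.41 ± 0.19), with H2-Aa at 1.43 ± 0.21 and the peptide exchanger H2-DMb1 at 1.73 ± 0.23. MHC class I and peptide loading genes rose at none of 18 and fell at 8, but by library size alone 3 rose and none fell, and 5 fell without MCD replicate 4 or normal diet replicate 2, the last with 2 that rose. B2m, the light chain of class I, had a log2 fold change of -0.76 ± 0.17 and the proteasome activator Psme2 -0.54 ± 0.09, and both calls were lost by library size alone (-0.30, adjusted p = 0.123 and -0.07, adjusted p = 0.476). Interferon-stimulated genes were mostly not called, with 1 of 34 higher and 6 lower (2 and 1 by library size alone). Without normal diet replicate 2, 6 were higher and 3 lower, and without MCD replicate 4, 3 were lower. No gene was higher when any library other than normal diet replicate 2 was left out. Bst2, which tethers virions to the cell, fell by 1.39 ± 0.17.

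Other leukocyte lists had smaller sums. Dendritic cell markers rose at 8 of 11 (23.2 to 51.6 CPM in sum in MCD livers and 8.48 to 10.3 CPM in normal-diet livers). Neutrophil markers rose at 7 of 10 tested of the list of 17. Their sum was only 4.89 to 15.5 CPM in MCD livers and 0.993 to 3 CPM in normal-diet livers, and Ngp, Camp, Elane, Mpo and Stfa1 had no count in any of the 8 libraries. The C-type lectin Clec4d had 1.93, 6.85, 3.81 and 3.82 CPM in MCD livers and at most 0.0925 CPM in normal-diet livers, and S100a8 rose by 2.95 ± 0.60. Lymphocyte markers were at 10.4 to 15.8 CPM in sum in MCD livers and 11.3 to 20 CPM in normal-diet livers, with 5 of 28 higher and 3 lower, and 8 higher without normal diet replicate 2 but 1 without normal diet replicate 3 and 2 without MCD replicate 2, MCD replicate 3 or normal diet replicate 1. By library size alone 11 lymphocyte markers were higher and 3 lower. The B cell receptor component Cd79a (-2.61 ± 0.50) was 1 of the 3 that fell, while 5 rose. The part of these cell types in the changes of other lists was not tested.

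Inflammatory signalling genes rose more often than they fell. Of 34 chemokine and cytokine genes tested in the list of 40, 19 rose and 3 fell, and 17 of 31 genes for NF-kB and Toll-like receptor signalling rose and 3 fell. Of the second list 24 rose and none fell by library size alone, and 1 fell without MCD replicate 3 or 4 or normal diet replicate 2 or 3. Ccl2, which recruits monocytes, averaged 2.49 ± 0.801 CPM in MCD livers and 0.355 ± 0.195 CPM in normal-diet livers (log2 fold change 2.79 ± 0.41), and the chemokine receptor Cxcr4 rose by 2.52 ± 0.38. The interleukin-1 antagonist Il1rn rose by 3.62 ± 0.52, the feedback inhibitors Tnfaip3 by 1.90 ± 0.25 and Tnip1 by 1.29 ± 0.19, and the adhesion molecules Vcam1 by 2.70 ± 0.38 and Icam1 by 1.36 ± 0.20. The cytokine-list members that fell were Il18 (-1.03 ± 0.16), Ccl27a (-1.79 ± 0.23) and Ccl9 (-1.07 ± 0.28), the last not called by library size alone (-0.61, adjusted p = 0.094). Of 31 acute phase genes 12 rose and 5 fell (21 and 1 by library size alone, and 3 falls without normal diet replicate 2). Lipocalin-2 Lcn2, an iron-scavenging protein of injured epithelium and neutrophils, had 128, 478, 282 and 168 CPM in MCD livers, against 6.38, 6.93, 1.7 and 2.48 CPM in normal-diet livers (log2 fold change 5.92 ± 0.63). Serum amyloid P, Apcs, rose by 3.43 ± 0.40 and the hepcidin paralog Hamp2 by 2.97 ± 0.45.

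Matrix genes rose more often than the background, 29 of 54 with 6 lower. The fibrillar collagen genes Col1a1 and Col3a1 and the myofibroblast marker Acta2 were not called. The falls numbered 3 without MCD replicate 1 or MCD replicate 4. Col1a1, named with Col3a1 and Acta2 after their values were seen, had 10.3, 30.9, 15.8 and 9.49 CPM in MCD livers and 20.2, 2.37, 5 and 6.09 CPM in normal-diet livers (log2 fold change 0.98 ± 0.60, adjusted p = 0.212). Normal diet replicate 1 was above 3 of the MCD livers, and without it Col1a1 was called higher (1.89, adjusted p = 0.0142). Limma-voom with all libraries also called Col1a1 higher (1.41, adjusted p = 0.0204). Col3a1 averaged 52 ± 37.1 CPM in MCD livers and 31.3 ± 22.8 CPM in normal-diet livers (adjusted p = 0.318). Acta2, smooth muscle actin, averaged 4.36 ± 1.85 CPM in MCD livers and 4.25 ± 2.91 CPM in normal-diet livers (adjusted p = 0.961). At each of the 3 genes normal diet replicate 1 was the highest of its group.

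Stellate cell and fibroblast markers rose at 11 of 22 and fell at 1, the tropomyosin Tpm2 (-0.94 ± 0.27, a call lost by library size alone and without normal diet replicate 3), with a sum of 592 to 892 CPM in MCD livers and 280 to 532 CPM in normal-diet livers. Pdgfra, a growth factor receptor of these cells, had 17.6, 20.3, 13.9 and 13.5 CPM in MCD livers, against 5.47, 2.89, 4.44 and 4.1 CPM in normal-diet livers (log2 fold change 1.95 ± 0.20). Lrat, which stores vitamin A in quiescent stellate cells, rose by 1.35 ± 0.22, Cygb, the stellate cell globin, by 1.46 ± 0.24 and the proteoglycan Dcn by 1.09 ± 0.17. Tgfbi, a matrix protein induced by TGF beta, rose by 1.35 ± 0.19. Col18a1, the basement membrane collagen that hepatocytes make, fell by 0.70 ± 0.14, a call lost by library size alone (-0.24, adjusted p = 0.109). Endothelial markers rose at 4 of 23 and fell at 1 (447 to 532 CPM in sum in MCD livers and 369 to 457 CPM in normal-diet livers), and cholangiocyte markers rose at 3 of 17 and fell at 2 (183 to 335 CPM and 191 to 233 CPM). By library size alone 15 endothelial markers rose and none fell, and 7 cholangiocyte markers rose and 1 fell. The endothelial falls numbered 2 without MCD replicate 2 and 0 without normal diet replicate 3, and the cholangiocyte rises 5 without normal diet replicate 3.

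Of 28 annexin, S100 and injury genes 20 rose and 2 fell (median 1.68). The falls were S100a16, whose sign turned by library size alone (0.03, adjusted p = 0.835), and the trefoil peptide Tff3 (log2 fold change -4.66 ± 1.01, and -2.42 without normal diet replicate 1, with the call lost by limma-voom at an adjusted p of 0.0542), at 0.509, 0.964, 0.673 and 0.561 CPM in MCD livers and 57.6, 4.35, 1.86 and 4.68 CPM in normal-diet livers. Annexin Anxa2 had 79.2, 133, 89.1 and 55.4 CPM in MCD livers, against 13.8, 5.98, 9.53 and 9.43 CPM in normal-diet livers (log2 fold change 3.20 ± 0.34), and S100a11 rose by 2.74 ± 0.33. Ly6d, a surface protein seen on injured hepatocytes, had 45.3, 123, 93.5 and 24.3 CPM in MCD livers, against 0.74, 0.632, 0.31 and 0.388 CPM in normal-diet livers (7.10 ± 0.66). Alpha-fetoprotein Afp had 10.9, 35, 17.3 and 12.3 CPM in MCD livers, against 1.29, 0.902, 0.852 and 0.777 CPM in normal-diet livers (4.30 ± 0.37). MCD replicate 2 was highest at Anxa2, Ly6d and Afp. Immediate-early genes rose at 11 of 21 and fell at none, with Ier3 at 3.36 ± 0.39 and Klf6 at 2.16 ± 0.37. Among p53 and cell death genes 12 of 30 rose and 5 fell (20 and 1 by library size alone). The receptor Tnfrsf12a rose by 2.04 ± 0.31 and the necroptosis effector Mlkl by 1.74 ± 0.25.

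Proliferation genes rose at 10 of 40 (25%, against a background of 20.3%) and fell at 1, with 20 and 1 by library size alone and 18 rising without MCD replicate 4. Ccnd1, the cyclin of G1, had 145, 348, 368 and 341 CPM in MCD livers, against 44.8, 32.7, 39.3 and 29.1 CPM in normal-diet livers (log2 fold change 3.04 ± 0.27, adjusted p = 7.74e-06). The replication helicase subunit Mcm6 rose by 1.93 ± 0.36 and thymidine kinase Tk1, which overlaps Afmid, fell by 1.34 ± 0.12. Mki67, named after its values were seen, had 1.94, 17.9, 6.07 and 2.28 CPM in MCD livers and 2.9, 3.81, 0.949 and 1.45 CPM in normal-diet livers. It was not called (adjusted p = 0.0949). Mki67 was called higher, narrowly, without MCD replicate 1 (1.95, adjusted p = 0.0498). Limma-voom (1.77, adjusted p = 0.0382) and library size alone (2.15, adjusted p = 0.0321) also called it higher. Without MCD replicate 2 the log2 fold change was 0.59 (adjusted p = 0.476).

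**Figure D5:**
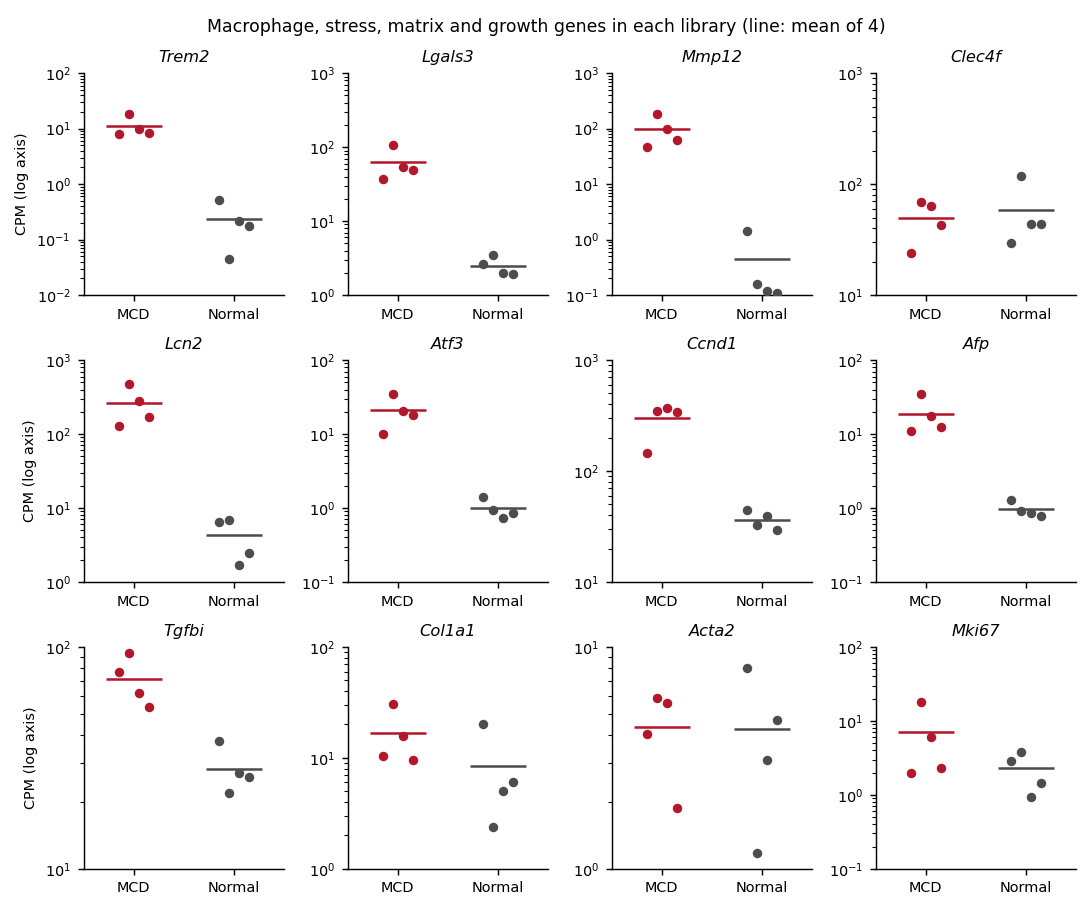
CPM in each library (log axis) of 12 macrophage, stress, matrix and growth genes in MCD livers (red) and normal-diet livers (grey), with the mean of 4 libraries as a line. Trem2, Lgals3, Mmp12, Lcn2, Atf3, Ccnd1, Afp and Tgfbi are higher in MCD livers with no overlap. Clec4f, Col1a1, Acta2 and Mki67 overlap between the diets.

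Genes for plasma proteins and amino acid breakdown, main functions of the hepatocyte, fell. Of the 18 defining hepatocyte markers 9 fell and none rose, and by library size alone 5 fell and 3 rose. With single libraries left out 6 to 10 of these markers fell, and 1 rose without MCD replicate 1. Complement and coagulation genes fell at 31 of 37 and rose at 1 (median -0.93), secreted plasma proteins fell at 19 of 30 and rose at 3, and amino acid catabolic genes fell at 25 of 38 and rose at none. By library size alone the falls numbered 22, 17 and 13 and the rises 2, 6 and 3. Serpina3k, a protease inhibitor of plasma, had 999, 1096, 1192 and 1712 CPM in MCD livers, against 10199, 12371, 11460 and 15698 CPM in normal-diet livers (log2 fold change -3.31 ± 0.21). Mug1, a murine alpha-macroglobulin, fell by 2.32 ± 0.18, the antitrypsin Serpina1c by 2.22 ± 0.18 and transthyretin Ttr by 0.96 ± 0.17. The members that rose were fetuin Ahsg (0.53 ± 0.14), the inter-alpha-inhibitor chain Itih3 (0.64 ± 0.16), the selenium carrier Selenop (0.46 ± 0.12) and coagulation factor F5 (0.34 ± 0.10). The urea cycle and nitrogen list did not fall as a group. Of its 17 genes 4 fell (23.5%, against a background of 21%), 1 rose and 12 were not called. By library size alone 9 rose and 2 fell. The urea cycle enzyme Otc had 163, 173, 183 and 225 CPM in MCD livers, against 688, 757, 665 and 727 CPM in normal-diet livers (-1.93 ± 0.15). In tryptophan breakdown Afmid, which overlaps Tk1, fell by 2.98 ± 0.20 and Haao by 2.23 ± 0.15, and in leucine breakdown Mccc2 fell by 1.24 ± 0.12.

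In glucose metabolism 14 of 35 genes rose and 4 fell (25 and 2 by library size alone, and 2 falls without MCD replicate 1 or 3). The rises included the glycolytic aldolase Aldoa (1.43 ± 0.14) and the pyruvate kinase Pkm (1.93 ± 0.26), and the falls the liver glycogen phosphorylase Pygl (-1.67 ± 0.14). Lysosomal genes rose at 22 of 36 and fell at 3 (32 and 1 by library size alone), with the proton pump subunit Atp6v0d2, which is also female-biased in liver, at 46.5 ± 11.3 CPM in MCD livers and 4.67 ± 2.43 CPM in normal-diet livers (log2 fold change 3.32 ± 0.30). Nuclear genes of the respiratory chain were mostly not called, with 1 of 48 higher and 6 lower, but 27 were higher and none lower by library size alone. Without MCD replicate 4, 21 were lower, and without MCD replicate 2 or MCD replicate 3, 3 were lower. Transcripts of the mitochondrial genome summed to 51200 to 61500 CPM in MCD livers and 74300 to 115000 CPM in normal-diet livers. They fell at 11 of 13 genes, and at 3 by library size alone. CYTB had 6602, 7520, 5986 and 6210 CPM in MCD livers, against 14046, 17944, 11900 and 10147 CPM in normal-diet livers (-1.04 ± 0.18). These transcripts are among the most abundant, and their part in the scale shift between the diets was not tested.

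Retinoid genes changed in both directions, 7 of 27 higher and 9 lower (11 and 6 by library size alone). Adh7 rose by 2.19 ± 0.17, the carotene-cleaving Bco1 by 1.83 ± 0.21, and Rdh7 fell by 1.99 ± 0.15. In the circadian list 3 of 20 genes rose and 3 fell (8 and 1 by library size alone). The rises numbered 1 without normal diet replicate 2 or 3 and 5 without normal diet replicate 4. Arntl, which encodes the clock activator BMAL1, had 1.17, 1.37, 1.25 and 2.4 CPM in MCD livers, against 35.5, 9.72, 11.9 and 2.89 CPM in normal-diet livers. It was called lower (log2 fold change -3.28 ± 0.62, and -2.40 without normal diet replicate 1), and the normal-diet livers ranged widely. Arntl swings with the hour of day, and the part of sampling time was not tested.

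Transcripts of other tissues touched the normal-diet group. Pancreatic acinar genes summed to 6.09 to 21.6 CPM in MCD livers and 10.8 to 595 CPM in normal-diet livers, where replicate 4 held the highest sum. Of the 10 tested 7 were called lower, 1 without that replicate and 1 or 2 without normal diet replicate 3 or any MCD liver. Erythroid genes summed to 146 to 343 CPM in MCD livers and 381 to 570 CPM in normal-diet livers and fell at 6 of 6 tested, but at 2 by library size alone and at 2 without MCD replicate 1, 2 or 4 or normal diet replicate 1 or 4. Among muscle, fat and mesothelial genes 1 of 7 tested fell, carbonic anhydrase Car3, which male mouse hepatocytes also express (-2.26 ± 0.24).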

How the data were processed

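Liver RNA was sequenced in the libraries of the MCD cohort, and the authors deposited 1 table of raw counts per gene for the cohort, indexed by Entrez gene ID. The build mm10, the aligner HISAT2 2.1.0, StringTie 2.1.3b, the trimmer Trimmomatic 0.38 and FastQC 0.11.7 are named, per the submitters' processing notes. Their settings, the use of strand and the handling of reads that match several places are not stated there. Library sizes were 55.1 to 66.73 M counts, and each gene's SE gives the precision.

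The test was edgeR's quasi-likelihood F test, version 4.0.16 under R 4.3.3, with TMM factors and the filterByExpr filter (MCD minus normal diet, Benjamini-Hochberg adjusted p under 0.05). All 11 libraries of the cohort entered 1 fit with 3 groups. The SE of a log2 fold change is its absolute value divided by the square root of the F statistic of that test. The procedure was also run on simulated counts, whose outcome is not given here. Alternatives used DESeq2 1.42.0, limma 3.58.1 (voom), other scaling factors, other filters, fewer libraries and a replicate block. Genes with no count in 1 group got a bound from 3 counts over that group. Symbols and coordinates came from RefSeq GRCm38.p6, the same build as mm10, which matched 45679 of 45777 IDs.

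Members and gene lists were chosen with earlier results of these data known. Named genes were the 12 largest rises and 12 largest falls with a mean of at least 1 CPM in the higher group and no overlap, the 10 of smallest p, up to 4 of smallest p per list, called members against a list's majority, and members of the methionine, lipid, bile acid, growth hormone axis and ATF4 lists. Cpt1a, Clec4f, Timd4, Col1a1, Col3a1, Acta2 and Mki67 were added after their values were seen. A few genes that the rule selects are not reported here. Replicate numbers are shared by the diets in the labels, but the deviations of same-numbered libraries from their group means correlated at -0.135 to 0.109 across genes, so the main fit is unpaired.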

Additional observations from a re-analysis of the deposited data

Results flagged for a closer look

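In 30 of 518 groups of 4 libraries examined for the genes named, 1 library stood apart from the other 3 by a gap test at its 95% critical value. Chance flags about 1 group in 20, so these are values to look at again rather than findings. MCD replicate 4 stood apart most often. It was the highest of its group at Acsl4 (246 CPM), Aldh1l1 (981 CPM), Apoc1 (1960 CPM), Arntl (2.40 CPM), C8b (49.3 CPM), Cyp2b13 (18.6 CPM), Cyp2c54 (6.42 CPM), Cyp4a12a (19.2 CPM), Hamp2 (242 CPM), Nr0b2 (16.4 CPM) and Pemt (304 CPM). MCD replicate 2 was the highest at Krt20 (12.2 CPM), Slc7a11 (14.4 CPM) and Trem2 (18.5 CPM). MCD replicate 1 stood apart at Asns, where it was highest (41.2 CPM), and at Ccnd1, where it was lowest (145 CPM).

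Normal diet replicate 1 was the lowest of its group at Cyp27a1 (352 CPM) and Mttp (268 CPM). It was the highest at Cyp2a4 (30.4 CPM), Fads1 (731 CPM), Mmp12 (1.42 CPM), Slc7a11 (0.148 CPM) and Tff3 (57.6 CPM). Normal diet replicate 2 was the highest at Acss2 (359 CPM), B2m (2430 CPM), Cd68 (9.93 CPM) and Clec4f (118 CPM). Normal diet replicate 3 was the lowest at Apoa1 (5680 CPM), and normal diet replicate 4 was the highest at Cidec (2.44 CPM) and Serpina4-ps1 (35.8 CPM).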

How the results depend on the processing

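The number of genes called was 6600 with relative log expression factors, 7060 with DESeq2, 8017 with limma-voom, 6085 without a count filter, 5863 with a stricter one, 5865 with the diets fitted alone and 5600 to 6550 when single libraries were left out (2777 to 3334 higher and 2823 to 3264 lower). With a replicate block, 6203 genes were called, 5975 of them shared with the unpaired fit, and among the genes named it changed only the call of Eif2ak3. Requiring a log2 fold change of at least 1 left 3054 genes, 1910 higher and 1144 lower. With no TMM factors, 7683 genes were called higher and 1170 lower, since that scaling moves the median gene by 0.47. Of the 259 genes named, 13 calls were lost under that scaling, 34 when a log2 fold change of at least 1 was required and 8 under any of the remaining settings. The sign of genes near 0 turned under some settings. By library size alone the log2 fold change was 0.41 for Bhmt, 0.19 for Mttp, 0.31 for Cyp8b1, 0.40 for Atf4, 0.27 for Clec4f, 0.36 for Apoe and 0.03 for S100a16, and with limma-voom it was 0.15 for Clec4f. When single libraries were left out, Bhmt ranged from -0.25 to 0.26, Pemt from -0.04 to 0.13, Cyp8b1 from -0.53 to 0.02, Atf4 from -0.23 to 0.13, Clec4f from -0.45 to 0.36 and Acta2 from -0.27 to 0.55. The causes of these turns were not tested. Genes with no count on one diet are limited by depth and given as bounds, and the fitted fold changes of genes near 0 move with single libraries.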
